A study of Mus musculus with 12 samples.

Results

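The guanylate-binding protein family comprises large interferon-inducible GTPases, and its 10 listed mouse genes (Gbp2, Gbp2b, Gbp3, Gbp4, Gbp5, Gbp6, Gbp7, Gbp8, Gbp9 and Gbp10) were followed here in RNA of mandibular lymph nodes. They were taken by name, each matched 1 Ensembl ID, and they are 10 of the 56941 gene IDs in the table of estimated counts. Nodes came from miR-451a KO mice, which lack that microRNA, and from wild-type mice, with 3 libraries in each of 4 groups. All mice had 100 µl of 0.5% 1-fluoro-2,4-dinitrobenzene (DNFB), a contact allergen, on the shaved abdomen on days 0, 1 and 2. The groups are miR-451a KO sensitized and challenged (KO_DTH), miR-451a KO sensitized only (KO_se), wild type sensitized and challenged (WT_DTH) and wild type sensitized only (WT_se). Challenge was 20 µl of 1% DNFB on the left ear on day 9 with harvest 24 hours later, on day 10, whereas sensitized nodes were taken on day 9, so the effects of challenge and of harvest day cannot be told apart. Strain, age, how the knockout was made and which mouse gave which library are not given in the sources used here, and p-values therefore measure the spread between these libraries. Mir451a was not analysed here, so the genotype label had no check from the targeted gene.

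Guanylate-binding proteins are made in many cell types after exposure to interferon. Interferon-γ acts on genes with GAS elements, while type I interferon acts through a complex that includes STAT2 and IRF9 and binds interferon-stimulated response elements (ISRE); IRF1 binds ISRE-like elements as well. The proteins assemble on the membranes of vacuoles that hold intracellular parasites and on bacteria, and in mice the genes clustered on chromosome 3 are needed for full activation of the caspase encoded by Casp4, which senses bacterial lipopolysaccharide in the cytosol. Of the members, Gbp2, Gbp2b, Gbp3, Gbp5 and Gbp7 lie on chromosome 3 and Gbp4, Gbp6, Gbp8, Gbp9 and Gbp10 on chromosome 5.

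The promoters of the chromosome 3 members are shown because all 10 members rose on challenge and the promoter table held entries for these 5. RefSeq promoter windows on GRCm38.p6, which run from 250 bases before to 50 bases after an annotated start, matched 5 of the 10 members, with 6 starts in all. Capitals mark matches to an ISRE core (GAAANNGAAA) or to a GAS element (TTCNNNGAA), searched on both strands. The windows are chr3:142620413-142620712 for Gbp2, chr3:142594597-142594896 for Gbp2b, chr3:142559794-142560093 for the first of the 2 Gbp3 starts, chr3:142496684-142496983 for Gbp5 and chr3:142530086-142530385 for Gbp7, all on the plus strand and written 5′ to 3′:
Gbp2: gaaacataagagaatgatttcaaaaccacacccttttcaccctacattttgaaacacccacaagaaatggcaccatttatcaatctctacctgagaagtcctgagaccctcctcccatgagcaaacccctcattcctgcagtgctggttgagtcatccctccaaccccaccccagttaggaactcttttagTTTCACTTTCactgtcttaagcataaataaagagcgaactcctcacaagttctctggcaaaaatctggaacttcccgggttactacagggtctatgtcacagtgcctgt
Gbp2b: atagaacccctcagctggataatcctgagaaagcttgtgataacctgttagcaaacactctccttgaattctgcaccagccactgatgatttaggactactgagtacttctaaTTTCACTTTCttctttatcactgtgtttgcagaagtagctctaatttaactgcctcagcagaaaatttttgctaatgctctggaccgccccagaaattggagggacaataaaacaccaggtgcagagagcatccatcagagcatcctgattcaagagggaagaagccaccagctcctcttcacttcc
Gbp3: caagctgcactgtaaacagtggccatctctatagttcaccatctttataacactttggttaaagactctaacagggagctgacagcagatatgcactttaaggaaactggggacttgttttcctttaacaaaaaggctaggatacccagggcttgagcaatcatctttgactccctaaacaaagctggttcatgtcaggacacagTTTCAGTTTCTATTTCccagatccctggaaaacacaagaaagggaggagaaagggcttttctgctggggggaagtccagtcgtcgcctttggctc
Gbp5: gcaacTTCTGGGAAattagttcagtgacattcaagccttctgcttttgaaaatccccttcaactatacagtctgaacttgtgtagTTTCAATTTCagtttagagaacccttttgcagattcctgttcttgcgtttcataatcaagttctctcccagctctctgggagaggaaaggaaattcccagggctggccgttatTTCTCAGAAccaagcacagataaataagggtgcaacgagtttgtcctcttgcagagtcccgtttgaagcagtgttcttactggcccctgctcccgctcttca
Gbp7: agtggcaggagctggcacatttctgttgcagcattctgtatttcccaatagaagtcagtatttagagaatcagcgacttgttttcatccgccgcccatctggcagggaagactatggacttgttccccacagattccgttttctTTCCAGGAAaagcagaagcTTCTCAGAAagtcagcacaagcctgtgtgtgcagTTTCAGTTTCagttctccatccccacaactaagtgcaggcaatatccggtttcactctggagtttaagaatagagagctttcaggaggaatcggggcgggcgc

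Each of the 5 matched members carried the ISRE core in a window, against 3.99% of the 27025 genes in the table. In Gbp2 the match began 59 bases before the start, in Gbp7 53 bases before it, in Gbp2b 137 and in Gbp5 165 bases before it, and Gbp3 held 2 overlapping matches that began 45 and 39 bases before its first start. The window of the other Gbp3 start held neither motif. GAS matches occurred in Gbp5, 245 and 52 bases before the start, and in Gbp7, 106 and 87 bases before it, so 2 of the 5 had both motifs, against 0.54% of all genes; a GAS match alone occurred in the windows of 9.55% of genes. No GAS match overlapped an ISRE match in these windows. A match is a description of the letters and does not show that a factor binds.

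**Figure D1:**
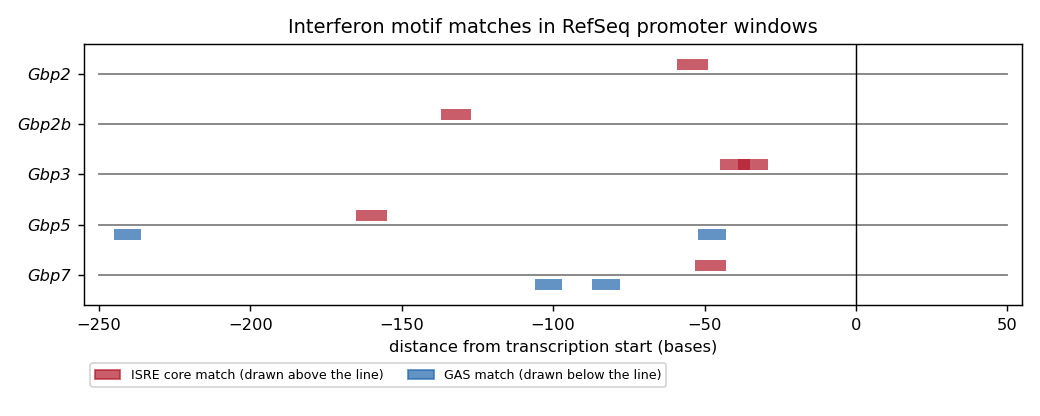
Position of motif matches in the promoter windows of the chromosome 3 members, in bases from the annotated transcription start (first start of Gbp3). Red boxes above each line are ISRE core matches and blue boxes below it are GAS matches; all 5 genes have a red box and 2 have blue boxes.

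Most members can be told apart in reads, except Gbp6 and Gbp10. Of the distinct stretches of 100 bases in the annotated transcripts of Gbp10, 60.1% also occurred in Gbp6 transcripts, and 36.3% of those of Gbp6 occurred in Gbp10. With the predicted gene Gm43302 and with Gbp11 counted as well, 73.5% of Gbp10 stretches and 64.5% of Gbp6 stretches were shared with some other gene. The split of counts between these copies is therefore uncertain, and Gm43302 itself held 0 counts in WT_se replicate 3 and KO_se replicate 2 but 306 to 539 in the other 4 sensitized libraries. Gbp2 and Gbp2b shared no such stretch with another gene, Gbp7 shared 9.59% with the predicted gene Gm43802, and each of Gbp3, Gbp4, Gbp5, Gbp8 and Gbp9 shared under 5%.

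Library totals ran from 36946696 to 58405576 estimated counts. The counts of a member in a library ran from 60, for Gbp2b, to 13973, for Gbp9, and libraries of a group differed by more than counting noise. All 10 members passed the filter on low counts. Markers of T cells and B cells, the main cells of a lymph node, were detected in every group (summed level 501 to 1068 and 1152 to 2312 CPM, that is, counts scaled to a common library size). Markers of salivary gland, which lies next to these nodes, were present in every library and differed between groups. In the bulk RNA of a node, a change in the number of cells of a type and a change in RNA per cell cannot be told apart.

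The first 2 comparisons ask what challenge, any effect of harvest day included, did to the family in each genotype. All 10 members rose in miR-451a KO nodes and all 10 rose in wild-type nodes (edgeR's quasi-likelihood test, Benjamini-Hochberg adjusted p under 0.05 over 20034 genes). Of all genes tested, 5.81% were called higher on challenge in the knockout and 9.77% in wild type. The fold change of the members ran from 2.03 to 5.79 in the knockout and from 1.46 to 4.55 in wild type. The median log2 fold change over the members was 1.49 in the knockout and 1.22 in wild type, where the medians over all genes were −0.0019 and −0.0093. In both genotypes every challenged library lay above every sensitized library for each of the 10 members, a pattern shown by 15.1% of all genes tested in the knockout and 17.6% in wild type.

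**Figure D2:**
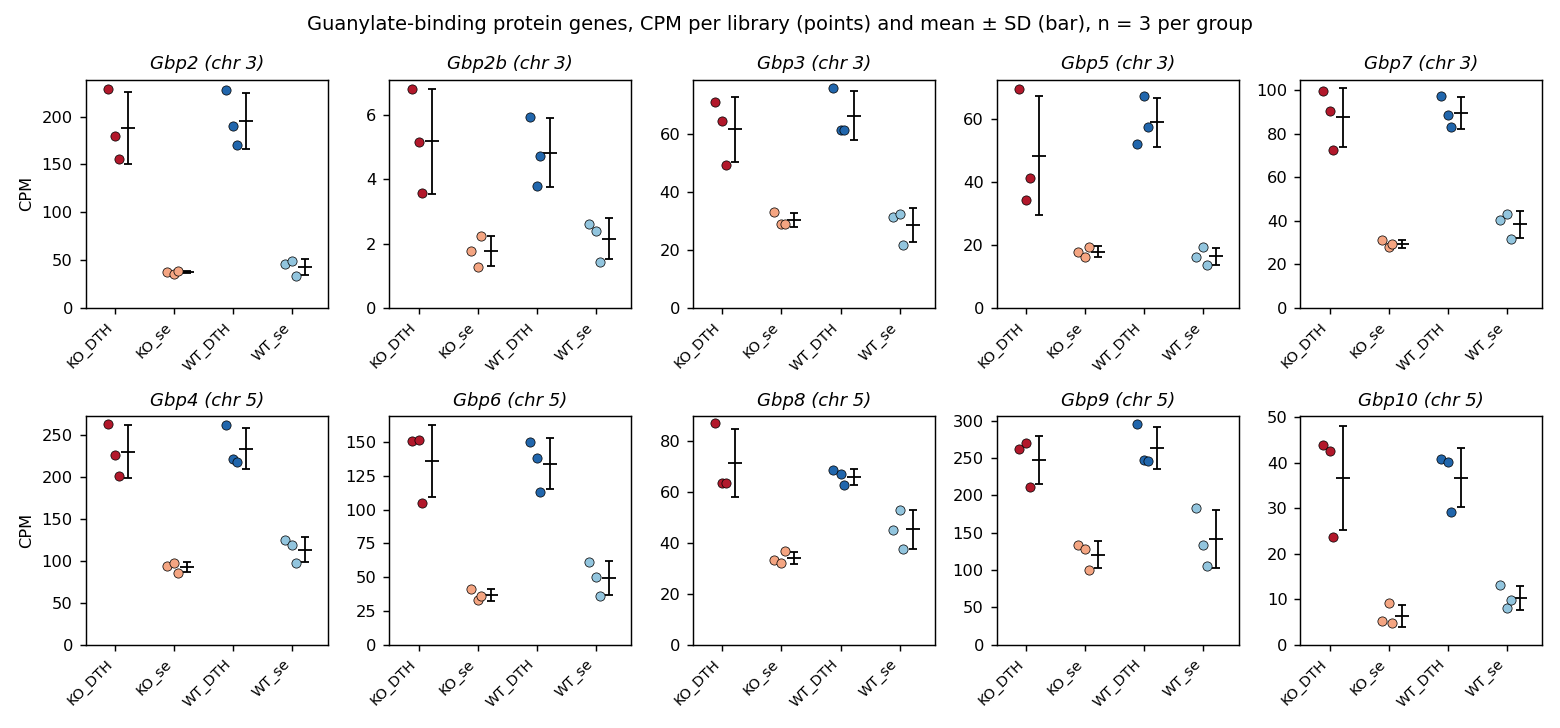
Level of each member in every library, in CPM on a linear axis from 0, with the mean and SD of the 3 libraries of a group beside the points. Titles give the chromosome, and in each panel the challenged groups (dark points) lie above the sensitized groups (pale points) of the same genotype.

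Among the chromosome 3 genes Gbp2 changed by the most. Gbp2, which in mice is recruited to the vacuole of Toxoplasma gondii, had 229, 179.7 and 155 CPM in KO_DTH libraries, against 37.8, 35.9 and 38.4 CPM in KO_se libraries. In wild type it had 227, 189.7 and 169.7 CPM in WT_DTH libraries, against 45.7, 49.5 and 33.8 CPM in WT_se libraries. All 6 challenged libraries thus exceeded all 6 sensitized ones by a wide gap. The log2 fold change was 2.33 ± 0.17 (SE, adjusted p = 1.6e-05) in the knockout and 2.19 ± 0.17 (adjusted p = 1.64e-05) in wild type, and of all genes tested it ranked 5th and 10th by p. The wild-type rise of Gbp2 was also the one that was still called with a salivary score as covariate.

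Gbp5, which in mice promotes assembly of the NLRP3 inflammasome, had 69.5, 34.05 and 41.2 CPM in KO_DTH libraries, against 17.9, 16.1 and 19.5 CPM in KO_se libraries. It had 51.9, 67.1 and 57.4 CPM in WT_DTH libraries, against 16.1, 19.2 and 13.7 CPM in WT_se libraries. KO_DTH replicate 1 was about as high as the highest WT_DTH library, and the other KO_DTH libraries lay below all WT_DTH libraries. It rose by 1.44 ± 0.22 in log2 in the knockout (adjusted p = 0.00146) and by 1.85 ± 0.22 in wild type (adjusted p = 0.000198).

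Gbp7, linked in mice to assembly of the phagocyte NADPH oxidase, ranged from 72.5 to 99.3 CPM in KO_DTH and from 27.9 to 31.3 CPM in KO_se, and from 82.8 to 97.1 CPM in WT_DTH and 31.5 to 43.2 CPM in WT_se. Its log2 fold change was 1.57 ± 0.13 in the knockout (adjusted p = 3.45e-05) and 1.22 ± 0.13 in wild type (adjusted p = 9.16e-05). Gbp3, a further gene of the chromosome 3 cluster, ranged from 49.2 to 71.0 CPM in KO_DTH and 28.9 to 33.2 CPM in KO_se, with 61.2 to 75.8 CPM in WT_DTH and 21.7 to 32.2 CPM in WT_se. It rose by 1.02 ± 0.16 in the knockout (adjusted p = 0.00188) and by 1.22 ± 0.16 in wild type (adjusted p = 0.000381). Gbp3 and Gbp5 were the members whose fitted rise was smaller in the knockout, a difference that did not pass the test given further on.

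Gbp2b, formerly called Gbp1, was the member with the fewest counts. It had 6.83, 5.17 and 3.57 CPM in KO_DTH libraries, against 1.79, 1.29 and 2.24 CPM in KO_se libraries, and 5.96, 3.80 and 4.74 CPM in WT_DTH libraries, against 2.62, 2.41 and 1.43 CPM in WT_se libraries. The groups did not overlap, though they lay close together in wild type. It rose by 1.55 ± 0.32 in the knockout (adjusted p = 0.00975) and by 1.17 ± 0.32 in wild type (adjusted p = 0.0234). The wild-type call was lost without WT_se replicate 3 (adjusted p = 0.085), WT_DTH replicate 1 (0.0754) or WT_DTH replicate 3 (0.0502).

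On chromosome 5, Gbp10 changed by the most. Gbp10 had 43.9, 42.5 and 23.6 CPM in KO_DTH libraries, against 5.11, 9.15 and 4.77 CPM in KO_se libraries, and 40.8, 40.2 and 29.2 CPM in WT_DTH libraries, against 13.1, 8.03 and 9.79 CPM in WT_se libraries. Its log2 fold change was 2.53 ± 0.30 in the knockout (adjusted p = 0.000205) and 1.83 ± 0.29 in wild type (adjusted p = 0.00109). Its close copy Gbp6 had 150.7, 152 and 105 CPM in KO_DTH libraries, against 41.5, 33.4 and 35.8 CPM in KO_se libraries, and 150.5, 139 and 113 CPM in WT_DTH libraries, against 61.3, 49.8 and 36.1 CPM in WT_se libraries. Gbp6 rose by 1.88 ± 0.19 in the knockout (adjusted p = 7.99e-05) and by 1.45 ± 0.19 in wild type (adjusted p = 0.000319). Since reads of these copies can be split in more than one way, Gbp6, Gbp10, Gbp11 and Gm43302 were also counted as 1 gene, an alternative added after the data were seen. The 4 together rose by 2.09 ± 0.20 in the knockout (adjusted p = 6.47e-05) and by 1.65 ± 0.20 in wild type (adjusted p = 0.000195).

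Gbp9 and Gbp4 received more counts than any other member. Gbp4 had 263, 227 and 201 CPM in KO_DTH libraries, against 94.2, 97.0 and 85.7 CPM in KO_se libraries, and 262, 221 and 218 CPM in WT_DTH libraries, against 124, 119 and 97.1 CPM in WT_se libraries. It rose by 1.32 ± 0.12 in the knockout (adjusted p = 5.14e-05) and by 1.04 ± 0.12 in wild type (adjusted p = 0.00015). Gbp9 had 262, 270.1 and 211 CPM in KO_DTH libraries, against 133, 128 and 101 CPM in KO_se libraries, and 296, 248 and 246 CPM in WT_DTH libraries, against 183, 134 and 106 CPM in WT_se libraries. WT_se replicate 1 stood well above the other sensitized libraries, and Gbp9 rose by 1.04 ± 0.18 in the knockout (adjusted p = 0.00302) and by 0.90 ± 0.18 in wild type (adjusted p = 0.00409).

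Gbp8 rose by the least in wild type. It had 86.8, 63.5 and 63.6 CPM in KO_DTH libraries, against 33.2, 32.1 and 36.9 CPM in KO_se libraries, and 68.6, 66.8 and 62.5 CPM in WT_DTH libraries, against 44.96, 53.0 and 37.6 CPM in WT_se libraries. The wild-type groups were separated but close, and WT_se exceeded KO_se in each library. The log2 fold change was 1.07 ± 0.14 in the knockout (adjusted p = 0.000456) and 0.54 ± 0.14 in wild type (adjusted p = 0.0151), and the wild-type call was lost without WT_se replicate 3 (0.43 ± 0.14, adjusted p = 0.0591).

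**Figure D3:**
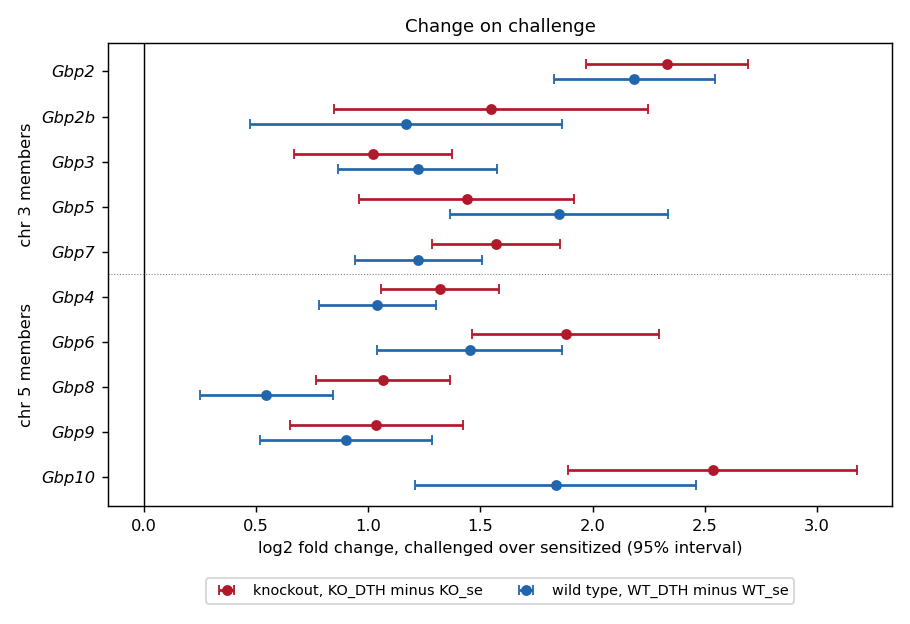
Change of each member on challenge as log2 fold change with its 95% interval, in the knockout (red, KO_DTH over KO_se) and in wild type (blue, WT_DTH over WT_se). Every point and interval lies right of 0; Gbp2 and Gbp10 reach furthest, and Gbp8 in wild type lies nearest to 0 at 0.54.

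Markers of several cell types moved as well. Of all 20034 genes tested, 774 were called lower on challenge in the knockout and 1798 in wild type. Summed over 6 monocyte markers, all detected, the level was 1120 to 1417 CPM in KO_DTH and 578 to 788 CPM in KO_se, and 1040 to 1792 CPM in WT_DTH and 427 to 542 CPM in WT_se; 4 of the 6 rose in the knockout and 6 of the 6 in wild type. The part of these cells in the rise of the family was not tested. Of the 6 T cell markers 3 fell in the knockout and 6 in wild type, with summed levels of 610.1 to 693 CPM in KO_DTH and 814 to 1000.4 CPM in KO_se, and 501 to 689 CPM in WT_DTH and 900.1 to 1068 CPM in WT_se. In wild type 5 of 6 B cell markers rose, while 5 of 6 erythroid markers (1998 to 2236 CPM in WT_DTH and 7567 to 14762 CPM in WT_se) and 4 of 6 endothelial markers fell. The summed endothelial level nevertheless overlapped, at 154 to 187 CPM in WT_DTH and 161 to 179 CPM in WT_se. In the knockout 1 endothelial marker rose and no B cell or erythroid marker was called. Neutrophil markers summed to 143 to 253 CPM in WT_DTH and 41.6 to 91.2 CPM in WT_se (2 of 6 rose), and overlapped in the knockout. NK cell markers summed to 81.5 to 168 CPM in KO_DTH and 62.9 to 74.6 CPM in KO_se (1 of 6 rose), and overlapped in wild type. Summed node stroma markers were lower after challenge in both genotypes without overlap, with 1 of 6 called lower in wild type. The 15 salivary markers in the table summed to 36509 to 104454 CPM in KO_DTH and 25960.2 to 67067 CPM in KO_se, but to 17558 to 28987 CPM in WT_DTH and 76422 to 156956 CPM in WT_se. Of these markers 14 of 15 fell in wild type, whereas 2 of 15 rose in the knockout, where the summed levels of the groups overlapped. With a salivary score as covariate, 9 members were still called higher in the knockout and 1 in wild type, where the log2 changes of the other 9 stayed above 0 at 0.45 to 1.72. Without the library of highest salivary score in each group, an alternative also chosen after seeing the data, all 10 were called in the knockout and 8 in wild type, the exceptions being Gbp2b (1.09, adjusted p = 0.0869) and Gbp8 (0.42, adjusted p = 0.115).

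Per kilobase of annotated exon, Gbp2 was the highest member after challenge, at 74.7 ± 14.8 CPM per kb in KO_DTH (SD, n = 3), against 14.8 ± 0.507 in KO_se, and at 77.7 ± 11.6 in WT_DTH, against 17.1 ± 3.26 in WT_se. Gbp9 came second after challenge and first before it, at 47.9 ± 6.24 CPM per kb in KO_DTH, against 23.3 ± 3.40 in KO_se, and at 50.9 ± 5.49 in WT_DTH, against 27.2 ± 7.50 in WT_se. In KO_DTH the order of levels per kb was Gbp2, Gbp9, Gbp4, Gbp6, Gbp8, Gbp3, Gbp7, Gbp10, Gbp5 and Gbp2b. In that order Gbp6 and Gbp8, Gbp8 and Gbp3, Gbp3 and Gbp7, and Gbp10 and Gbp5 overlapped over their libraries, and the other neighbours did not. WT_DTH differed from this order only in that Gbp3 stood before Gbp8, and these overlapped there too. In the sensitized groups Gbp9 preceded Gbp2, without overlap, and Gbp2 overlapped Gbp4 in WT_se but not in KO_se. Gbp2b was the lowest in every group, at 1.84 ± 0.577 CPM per kb in KO_DTH, against 0.629 ± 0.169 in KO_se, and at 1.71 ± 0.383 in WT_DTH, against 0.763 ± 0.225 in WT_se. Lengths matter for these ranks: by the longest transcript instead of all exons, Gbp4 stood at 50.8 ± 6.95 CPM per kb in KO_DTH and overlapped Gbp9, at 49.1 ± 6.40. By that length Gbp4 also stood above Gbp2 in the sensitized groups without overlap, at 20.3 ± 1.30 against 14.8 ± 0.507 CPM per kb in KO_se and at 25.0 ± 3.19 against 17.1 ± 3.26 in WT_se. In both of these groups Gbp4 overlapped Gbp9, which stood at 23.9 ± 3.49 CPM per kb in KO_se and at 27.9 ± 7.70 in WT_se.

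**Figure D4:**
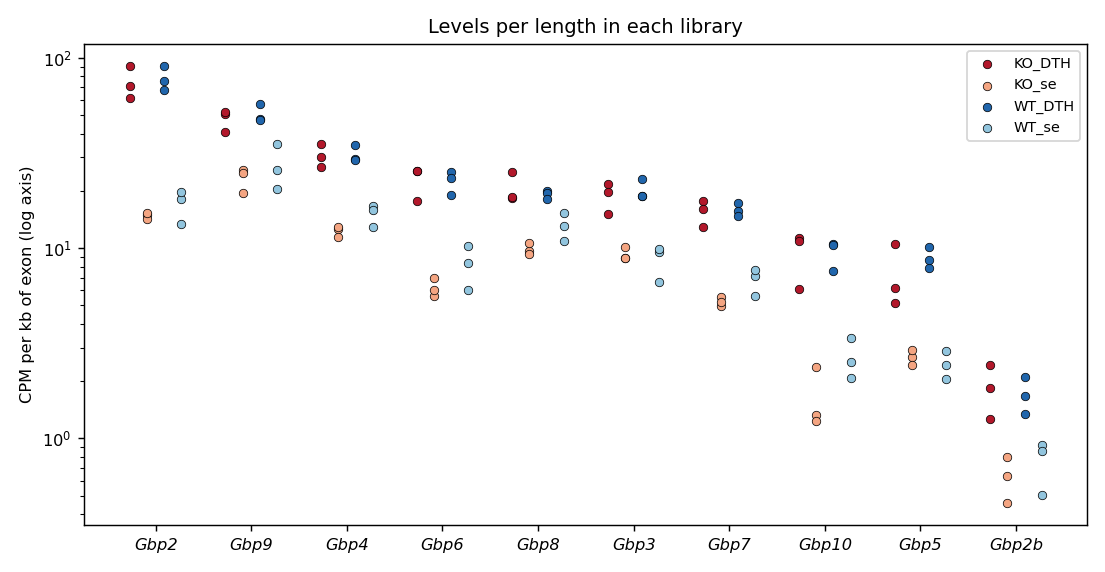
Level of each member in CPM per kb of exon on a log axis, 1 point per library, ordered by the KO_DTH mean. Gbp2 leads in the challenged groups and Gbp9 in the sensitized ones, and Gbp2b is lowest in all 4.

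The make-up of the family shifted with challenge. Summed over the 10 members the level was 1282, 1128 and 925 CPM in KO_DTH libraries, against 429, 410.0 and 382 CPM in KO_se libraries, a ratio of means of 2.73. They summed to 1275, 1125 and 1044 CPM in WT_DTH libraries, against 562, 511 and 388 CPM in WT_se libraries, a ratio of 2.36, or 3.08 with plain library totals in place of TMM scaling. The share of Gbp2 in this sum was 16.9 ± 0.957% in KO_DTH, against 9.20 ± 0.73% in KO_se, and 16.98 ± 0.786% in WT_DTH, against 8.84 ± 0.789% in WT_se (SD, n = 3). The share of Gbp9 was 22.4 ± 1.78% in KO_DTH, against 29.6 ± 2.79% in KO_se, and 22.9 ± 0.785% in WT_DTH, against 28.7 ± 3.34% in WT_se. Gbp8 likewise held less of the sum after challenge (6.42 ± 0.694% in KO_DTH, against 8.41 ± 1.08% in KO_se, and 5.77 ± 0.338% in WT_DTH, against 9.35 ± 1.23% in WT_se). These shares are descriptions without a test.

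Of the genes that carry the interferon-γ signal, the ligand and the interferon regulatory factors rose and the receptor chains did not. Ifng, the ligand, named for its role and after its values were seen, had 4.30, 5.93 and 4.19 CPM in KO_DTH libraries, against 2.13, 1.40 and 1.80 CPM in KO_se libraries, and 6.98, 3.73 and 7.73 CPM in WT_DTH libraries, against 1.18, 2.22 and 2.10 CPM in WT_se libraries. Over the 9 genes of the list, 5 rose in the knockout (median log2 fold change 0.56), and 6 rose and 1 fell in wild type (median 0.66). Irf1, which binds ISRE-like elements, rose by 0.56 ± 0.11 (adjusted p = 0.00751) and 0.80 ± 0.11 (adjusted p = 0.000468) in the knockout and in wild type, and Irf8, a related factor of myeloid and B cells, by 0.62 ± 0.11 (adjusted p = 0.0041) and 1.19 ± 0.11 (adjusted p = 4.4e-05). The receptor chain gene Ifngr2 fell by 0.30 ± 0.07 in wild type (adjusted p = 0.0119) and stood at 0.01 ± 0.07 in the knockout (adjusted p = 0.971). The wild-type call of Ifngr2 was lost without WT_se replicate 1 or without any 1 of the 3 WT_DTH libraries, and the knockout call of Ifng (1.43 ± 0.32, adjusted p = 0.0148; in wild type 1.74 ± 0.33, adjusted p = 0.00312) without KO_se replicate 2 or KO_DTH replicate 2.

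Of 6 genes of type I interferon reception and signalling, the same 3 rose in both genotypes (medians of 0.68 in the knockout and 0.54 in wild type). Stat2 and Irf9, which encode parts of the complex that binds ISRE, rose by 1.99 ± 0.15 and 1.28 ± 0.13 in the knockout (adjusted p = 2.78e-05 and 7.9e-05) and by 2.04 ± 0.15 and 0.99 ± 0.13 in wild type (adjusted p = 1.61e-05 and 0.000331). Irf7, which drives type I interferon genes, rose by 2.81 ± 0.30 in the knockout (adjusted p = 9.5e-05) and by 2.31 ± 0.29 in wild type (adjusted p = 0.000236). Of 8 other interferon-inducible GTPases, 8 rose in the knockout (median 1.77) and 7 in wild type (median 1.29). Irgm1, a regulatory member of the immunity-related GTPases, had the smallest p in both, at 2.14 ± 0.13 (adjusted p = 7.23e-06) in the knockout and 1.46 ± 0.13 (adjusted p = 2.71e-05) in wild type. Next came Tgtp1 (1.42 ± 0.14, adjusted p = 6.62e-05) and Igtp (1.51 ± 0.15, adjusted p = 6.91e-05) in the knockout, and Igtp (1.03 ± 0.15, adjusted p = 0.000605) and Iigp1 (1.69 ± 0.25, adjusted p = 0.000793) in wild type, all immunity-related GTPases. With the salivary score as covariate, the genes called higher in wild type were 0 of the interferon-γ list, 1 of the type I list, 1 of the other GTPases and 1 of the inflammasome list described next, and in the knockout 3, 3, 7 and 3.

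Next came genes that act with or after guanylate-binding proteins. Of 8 inflammasome and pyroptosis genes, 4 rose in the knockout (median 0.71) and 6 in wild type (median 1.02). Casp4, the caspase that senses lipopolysaccharide, rose by 0.74 ± 0.12 in the knockout (adjusted p = 0.00174) and by 1.41 ± 0.12 in wild type (adjusted p = 2.35e-05). Il1b, the cytokine that inflammasomes mature, rose by 1.55 ± 0.26 (adjusted p = 0.00282) in the knockout and by 2.12 ± 0.27 (adjusted p = 0.000258) in wild type, while Gsdmd, which forms the pore of pyroptosis, rose by 0.68 ± 0.11 (adjusted p = 0.0021) in the knockout and by 0.64 ± 0.11 (adjusted p = 0.00192) in wild type. The sensor gene Nlrp3 rose by 1.67 ± 0.31 (adjusted p = 0.00509) in the knockout and by 2.27 ± 0.32 (adjusted p = 0.000511) in wild type. Of 9 genes of the autophagy conjugation machinery that helps guanylate-binding proteins reach vacuoles, 1 fell in the knockout, and 1 rose and 1 fell in wild type. Gabarapl2 fell by 0.31 ± 0.07 (adjusted p = 0.0183) in the knockout and by 0.24 ± 0.07 (adjusted p = 0.0351) in wild type, where Atg16l1 rose by 0.32 ± 0.10 (adjusted p = 0.0427). Of 6 enzymes that attach and process the lipid anchor of some members, 1 fell in each genotype: Fnta, a subunit of both CaaX prenyltransferases, in the knockout (−0.30 ± 0.08, adjusted p = 0.0352) and Fntb, the farnesyltransferase β subunit, in wild type (−0.48 ± 0.15, adjusted p = 0.0434). These 5 small changes of the autophagy and prenylation lists were each lost with the salivary score and in 3 to 10 of the 12 fits with 1 library removed.

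The next comparisons ask whether the family differed between the genotypes. Summed salivary markers did not overlap between genotypes in either state. They were lower in KO_se (25960.2 to 67067 CPM) than in WT_se (76422 to 156956 CPM). After challenge they were higher in KO_DTH (36509 to 104454 CPM) than in WT_DTH (17558 to 28987 CPM). Within a state, effects of genotype and of salivary content therefore cannot be told apart. By edgeR no member was called between genotypes in either state. When sensitized, 0 of 10 passed by edgeR, which called 5.17% of all genes either way. By edgeR 5 members had an unadjusted p under 0.05, as did 21.99% of all genes. DESeq2 called 2, Gbp7 and Gbp8, lower, and the share of all genes that it called is not given here. The fitted log2 difference was below 0 for 8 of 10 members, with a median of −0.29, against −0.0072 over all genes. The 5 members of lowest p, singled out after their values were seen, were Gbp8 (−0.41 ± 0.14, adjusted p = 0.104), Gbp7 (−0.38 ± 0.13, adjusted p = 0.108), Gbp4 (−0.30 ± 0.12, adjusted p = 0.164), Gbp10 (−0.70 ± 0.29, adjusted p = 0.176) and Gbp6 (−0.41 ± 0.19, adjusted p = 0.224). Of these, Gbp4, Gbp7 and Gbp8 had every KO_se library below every WT_se library, as did 12.9% of all genes tested. The 95% intervals of the fold difference, knockout over wild type, ran from 0.613 to 0.926 for Gbp8 and from 0.398 to 0.95 for Gbp10, before any adjustment. The remaining 5 members lay between −0.28 and 0.13 in log2, with adjusted p of 0.514 to 0.806.

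When challenged, 0 of 10 members passed by edgeR, which called 0.599% of all genes either way, and 0 passed by DESeq2. By edgeR 0 members had an unadjusted p under 0.05, against 14.1% of all genes. The log2 differences ran from −0.28 to 0.11 with a median of −0.03, and the groups overlapped for each of the 10 members. Whether the genotypes differed more before or after challenge depended on the scaling: the log2 ratio of the summed level, knockout over wild type, was −0.046 when challenged and −0.26 when sensitized with TMM, but −0.25 when challenged and −0.079 when sensitized with plain library totals. The 95% intervals of the 10 members when challenged together covered fold differences of 0.594 to 1.72, with the lower bound from Gbp5 and the upper from Gbp2b. Averaged over both states, 0 of 10 members passed by edgeR, which called 4.74% of all genes either way, and 0 passed by DESeq2. By edgeR 1 member had an unadjusted p under 0.05, against 19.8% of all genes. The averaged log2 differences ran from −0.35 to −0.0041.

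**Figure D5:**
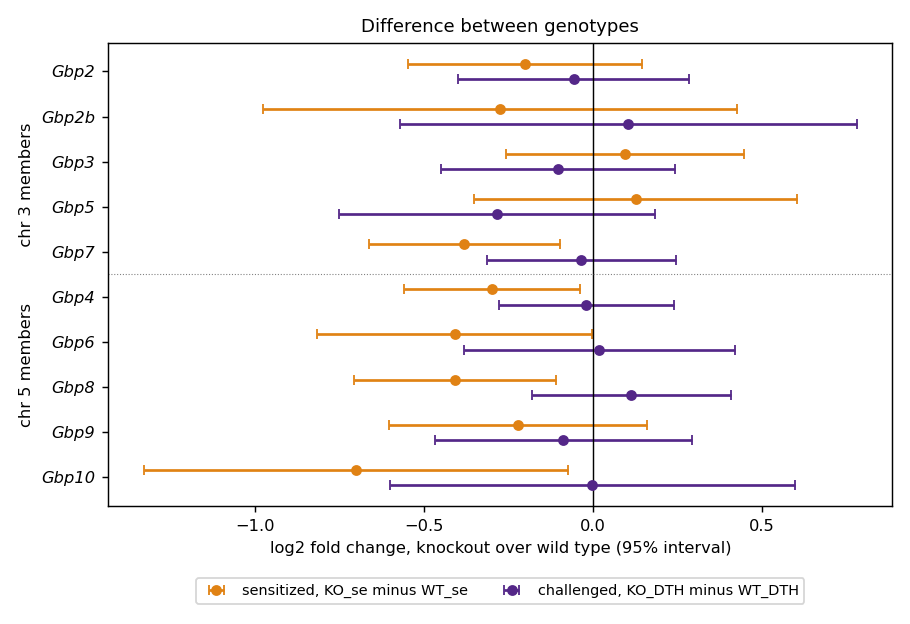
Difference between genotypes for each member as log2 fold change with its 95% interval, when sensitized (orange, KO_se over WT_se) and when challenged (purple, KO_DTH over WT_DTH). When sensitized 8 of 10 points lie left of 0, 5 of them with intervals that stay below 0 before adjustment; when challenged all 10 intervals span 0.

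Whether challenge acted differently in the 2 genotypes was tested by the interaction. By edgeR 0 of 10 members passed, 1 (Gbp8) had an unadjusted p under 0.05, and 0 passed by DESeq2, while 2.11% of all genes were called either way. The fitted rise was larger in the knockout for 8 of 10 members, all 5 on chromosome 5 among them, with interaction log2 values of −0.41 for Gbp5 to 0.70 for Gbp10. With plain library totals the family sum instead rose by less in the knockout, 2.73-fold, than in wild type, 3.08-fold, so this direction depends on the scaling. For Gbp8 the value was 0.52 ± 0.19 (adjusted p = 0.189), with KO_se below WT_se and the challenged groups overlapping. Each challenge comparison shares libraries with each genotype comparison, while the 2 challenge comparisons share none with each other, nor do the 2 genotype comparisons.

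Around the family, some listed genes were called between genotypes, where edgeR called 5.17% of all genes when sensitized and 4.74% averaged over both states. The sensitized calls were 3 of 8 inflammasome genes, 1 of 8 other GTPases, and 1 higher and 1 lower of 9 interferon-γ genes. When sensitized, Irgm1 was lower in the knockout (−0.59 ± 0.13, adjusted p = 0.0192), the 1 called of the 8 other GTPases, and of the interferon-γ list Ifngr2 was lower (−0.47 ± 0.07, adjusted p = 0.00415) and Irf8 higher (0.57 ± 0.11, adjusted p = 0.0131). Of the inflammasome list Casp4 (0.71 ± 0.12, adjusted p = 0.00603), the adaptor Pycard (0.57 ± 0.10, adjusted p = 0.00697) and Casp1, the caspase that matures IL-1β, (0.63 ± 0.12, adjusted p = 0.0133) were higher in the knockout. Neutrophil markers summed to 189 to 295 CPM in KO_se and 41.6 to 91.2 CPM in WT_se (2 of 6 called higher). B cell markers summed to 1642 to 2312 CPM in KO_se and 1152 to 1486 CPM in WT_se (2 of 6 called higher). Monocyte markers summed to 578 to 788 CPM in KO_se and 427 to 542 CPM in WT_se (1 of 6 called higher). Node stroma markers summed to 25.0 to 41.8 CPM in KO_se and 18.3 to 20.4 CPM in WT_se (1 of 6 called higher). Salivary markers were separated as well, as given above. The part of these cells and tissues in the differences was not tested. With the salivary score, the calls of Irgm1, Irf8, Casp4, Pycard and Casp1 were lost and that of Ifngr2 was not. The call of Irgm1 was also lost without WT_se replicate 1, KO_se replicate 1 or KO_se replicate 2, and that of Irf8 without KO_se replicate 1. Averaged over both states, Ifngr2 was lower (−0.32 ± 0.05, adjusted p = 0.00551), and the autophagy genes Atg5 (0.28 ± 0.07, adjusted p = 0.0411) and Gabarap (0.21 ± 0.05, adjusted p = 0.0297) were higher, as were Casp4 (0.37 ± 0.08, adjusted p = 0.0257) and Pycard (0.48 ± 0.07, adjusted p = 0.00303). Of these averaged calls, with 1 of the 12 libraries removed, Atg5 was lost in 12 fits, Gabarap in 7 and Casp4 in 7. The averaged calls of Atg5, Gabarap and Casp4 were also lost with the salivary score. Without the library of highest salivary score in each group, those of Atg5, Gabarap, Casp4 and Pycard were lost.

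Members also varied together between libraries of a group. After the group mean was taken out, the correlation of log2 CPM over the 12 libraries had a median of 0.685 over the 45 pairs of members, from −0.03 for Gbp5 and Gbp10 to 0.974 for Gbp3 and Gbp7. Pairs on different chromosomes had a median of 0.707 and pairs on the same chromosome 0.633. All 10 members lay below their group mean in KO_DTH replicate 3 (on average by −0.30 in log2), WT_se replicate 3 (−0.30) and WT_DTH replicate 3 (−0.12), and all 10 above it in KO_DTH replicate 1 (0.28). Of these, WT_se replicate 3 had the highest salivary score of its group, while KO_DTH replicate 3 had the lowest of its own. Values of a library share its RNA, depth and tissue make-up, and these correlations are descriptions.

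Of 13889 other genes with a mean of at least 50 counts, the 8 whose log2 CPM followed the mean standardised profile of the members most closely over the 12 libraries were Calhm6, Dtx3l, Gzmb, Fcgr1, Trafd1, Tgtp1, Ifi204 and Gm4070, with Pearson correlations of 0.993 to 0.985. Calhm6, a calcium homeostasis modulator channel gene, rose by 1.99 ± 0.25 in log2 on challenge in the knockout and by 1.65 ± 0.24 in wild type. Gzmb, the cytotoxic protease granzyme B, rose by 2.74 ± 0.37 and 2.21 ± 0.36, and Fcgr1, a receptor for IgG on myeloid cells, by 3.73 ± 0.34 and 3.42 ± 0.34. Tgtp1 is an immunity-related GTPase and one of the 8 other GTPases above. Gm4070 had nearly the same levels as Gvin1, which is also among those 8, at 218, 172 and 118 CPM against 224, 180 and 124 CPM in WT_se libraries. Whether Gm4070 and Gvin1 share reads was not tested. After the group means were taken out, the correlation of these 8 genes with the mean of the members was 0.77 to 0.954. The points share libraries and the 4 group levels.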

How the data were processed

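Mandibular lymph node RNA was measured in 12 libraries of 4 groups. The authors deposited estimated counts per Ensembl gene, all of them whole in the table. Per the submitters' processing notes, fastp 0.23.2, HISAT2 2.2.1, StringTie 2.2.1 and GRCm39 were used; per the labels' protocols, libraries of total RNA were made with a directional kit. Whether counting used strand is not given in the sources used here. A table of gene names gave symbols for 51948 of 56941 IDs, and exon lengths came from GENCODE M21 on GRCm38, so no gene coordinates are given, and promoter windows came from RefSeq on GRCm38.p6. Between libraries of 1 group chi-square per degree of freedom was 36.8 to 293, where 1 is counting noise, so no library was counted as a repeat of another.

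Counts were fitted with edgeR 4.0.16 in R 4.3.3 (quasi-likelihood, TMM, filterByExpr with a minimum count of 10), with 1 mean per group over 12 libraries and 8 residual degrees of freedom. The Benjamini-Hochberg adjustment of two-sided p-values ran over the 20034 genes kept, with a threshold of 0.05. Values are CPM with TMM scaling, and errors of log2 fold changes are model SEs. The fit was tested on simulated counts. Alternatives were DESeq2 1.42.0 (size factors; Wald test), no filter, a mean of at least 50 counts, only the libraries compared, a replicate block, a salivary score as covariate (mean log2 CPM of 15 genes, prior count 2) and each library left out. The members and lists were chosen with earlier results of these data known. All members are named; of each list, genes called are named in full up to 3, otherwise by the 3 of smallest p, as are the 8 genes most like the family by correlation. An item of 1 list that this rule would name is not reported here. Tables and plots were made in Python 3.11.15 with pandas 2.3.3 and matplotlib 3.10.9.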

Additional observations from a re-analysis of the deposited data

How the results depend on the processing

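In the knockout the rise of all 10 members held with any 1 of the 12 libraries left out and in 7 of 8 other settings; with the salivary score 9 were called, Gbp2b being lost (1.48, adjusted p = 0.104 for that gene). In wild type, leaving out 1 library gave 8 to 10, and the salivary score gave 1 (Gbp2), with all 10 directions kept and larger SEs. The score itself did not overlap there, at 8.45 to 9.81 in WT_se and 5.32 to 6.08 in WT_DTH. In wild type that fit can therefore hardly tell challenge and salivary content apart. The cause of the lost calls was not tested. The log2 ratio of the summed level on challenge in wild type was 1.24, or 1.62 with plain library totals. DESeq2's Wald test called 2 members lower in the sensitized knockout, where edgeR called 0. The share of all genes that DESeq2 called there is not given here.

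Between genotypes some values changed sign, none called. When sensitized Gbp3 was −0.033 with the salivary score and −0.031 without the libraries of highest salivary score, where Gbp5 was −0.055; leaving out 1 library gave Gbp3 −0.064 to 0.198 and Gbp9 −0.388 to 0.011. For the interaction Gbp3 was 0.15 with the salivary score and Gbp5 0.074 without those libraries, and leaving out 1 library gave Gbp9 −0.099 to 0.301 and Gbp2 −0.042 to 0.29. When challenged 27 of 200 member values changed sign, over all 10 members and to a size of up to 0.367, and of the averaged effect 10 of 190, over 3 members, with adjusted p of at least 0.792.

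Same-numbered libraries correlated at −0.0984 to 0.141 over genes, not above 0.1 in every pair, so the numbers were not taken as pairs. As a hint from the data, in the genotype comparisons the best match had the same number for 6 of 6 pairs (r 0.0429 to 0.141), against 1 of 6 in the challenge comparisons, and the members averaged above the group mean in replicate 1 and below it in replicate 3 of all 4 groups. With the replicate block 10 members were called in each challenge comparison and 0 between genotypes or for the interaction.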
